A study of Mus musculus with 24 samples.

Results

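The regions described here are 1379 peaks of LSD1, the histone demethylase encoded by Kdm1a, in 3T3-L1 cells that carry a label of LSD1 overexpression. They were chosen by the peak calls: each was listed in these cells at day 0, did not reach within 1 kb of any RefSeq transcription start site (TSS), overlapped a peak listed in the same cells at day 7, and overlapped no LSD1 peak of control cells at either day. Of 13997 peaks listed at day 0, 4727 lay away from a TSS, 1798 of those were also listed at day 7, and 1379 of those were in neither control list. The 6 peak lists of the series held 56252 peaks in all. Because the calls chose the regions, their scores and their absence from the control lists are given as a description with no test.

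3T3-L1 cells are mouse preadipocytes, grown as a line, that become fat cells when given adipogenic hormones. The groups were LSD1-labelled cells at day 7 and at day 0, and control 3T3-L1 cells at the same days, with 3 RNA-seq libraries in each of the 4 groups, titled as biological replicates, and 1 LSD1 ChIP-seq sample each. Confluent cells were day 0, and day 7 followed induction with 500 µM isobutylmethylxanthine, 10 µM rosiglitazone, 1 µM dexamethasone and 10 µg/ml insulin, with a change of medium at day 3. Nrf1 ChIP-seq had 1 sample a day, and the one from day 7 is named after LSD1 cells in its title while its genotype label says control, so both were grouped by day and factor only. The labels give neither the construct nor whether separate lines were derived for the replicates. The label and any other difference of the lines therefore cannot be told apart, and p-values measure the spread between these samples.

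Library totals were 27512273 to 37565527 counts. Kdm1a, the check of the label, stood at 89.4, 104.2 and 99.0 CPM (the depth-scaled unit of edgeR) in LSD1-labelled libraries at day 0, against 79.0, 86.3 and 84.1 CPM in control (log2 0.23, SE 0.096, adjusted p = 0.0969, edgeR's quasi-likelihood test with Benjamini-Hochberg adjustment). At day 7 it was 54.3, 55.4 and 54.4 CPM against 66.1, 67.6 and 74.5 CPM (log2 -0.34, adjusted p = 0.00751, edgeR). Kdm1a RNA thus missed the threshold at day 0 with all libraries and passed it at day 7, where the labelled libraries had less of it. Without replicate 1 of the LSD1-labelled day 0 group, Kdm1a was higher by label at day 0 (log2 0.29, adjusted p = 0.0131, edgeR). At day 0 the LSD1-labelled list held 13997 peaks and the control list 3024, so every direction below is one between labels. Replicate 1 of the LSD1-labelled day 0 group stood apart from its group, with correlations of 0.955 to 0.957 to the other libraries of the group, which correlated at 0.993 with each other. The 6 adipocyte markers summed to 25900 to 31720 CPM in LSD1-labelled and 9257 to 10970 CPM in control libraries at day 7, and to 461 to 580 and 605 to 782 CPM at day 0. Fewer cells of a type and less RNA per cell cannot be told apart in such bulk libraries.

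LSD1, also called KDM1A, removes methyl groups from histone lysines and works in complexes with CoREST and other partners, at promoters and at enhancers. Enhancers are stretches of regulatory DNA away from the TSS, many of which bind AP-1, a family of dimers of Fos and Jun proteins that recognise a short palindromic motif. The 3′ end of a gene is where its transcript is cleaved and polyadenylated, and RNA polymerase goes on beyond it before it leaves the DNA. Nrf1, nuclear respiratory factor 1, binds a GC-rich motif found mostly at promoters.

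By position, 469 regions lay within 1 kb of the 3′ end of a curated RefSeq gene and 910 lay elsewhere, and in those elsewhere the AP-1 letters TGANTCA were most frequent at the centre. The windows printed next were picked for holding these letters, near the centre of regions whose nearest genes are named below. They show the AP-1 letters in capitals in otherwise lower case, from the RefSeq assembly GRCm38.p6 (mm10).
Ccl2 region (chr11:82033052-82033138, plus strand): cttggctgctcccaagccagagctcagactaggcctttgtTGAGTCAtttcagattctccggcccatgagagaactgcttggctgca
Ier3 region (chr17:35813359-35813445, plus strand): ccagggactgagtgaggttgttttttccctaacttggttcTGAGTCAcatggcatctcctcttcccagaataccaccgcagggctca
Spp1 region (chr5:104407697-104407783, plus strand): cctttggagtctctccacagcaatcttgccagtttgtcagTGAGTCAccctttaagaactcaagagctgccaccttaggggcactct
Zc3h12a intronic region (chr4:125122758-125122844, plus strand): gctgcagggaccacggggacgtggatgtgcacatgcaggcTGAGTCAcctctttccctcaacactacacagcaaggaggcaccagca
Rarres2 region (chr6:48579295-48579381, plus strand): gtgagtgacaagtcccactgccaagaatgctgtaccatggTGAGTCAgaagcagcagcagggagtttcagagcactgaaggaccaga
Acsl1 region (chr8:46429909-46430108, plus strand): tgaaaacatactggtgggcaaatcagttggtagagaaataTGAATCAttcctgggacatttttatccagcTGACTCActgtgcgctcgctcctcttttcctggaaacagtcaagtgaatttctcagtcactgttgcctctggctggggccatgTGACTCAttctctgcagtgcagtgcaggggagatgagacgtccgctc
None of these windows overlaps an annotated exon. In 5 of the 6 the motif reads TGAGTCA, and the Acsl1 window, from a region 41.1 kb from the TSS of Acsl1, holds 3 matches within 200 bases, of which TGACTCA occurs at both of the later places.

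AP-1 letters were found in the central 300 bases of 240 of the 1379 regions (17.4%, Wilson 95% interval 15.5 to 19.5%), and 28 of these held more than 1 match. Among the 910 regions elsewhere than a 3′ end the share was 20.2% (184 regions, 17.7 to 23.0%). Windows of the same length 3 to 4.5 kb from the same centres held the letters in a median of 8.46% (6.48 to 10.1% over the windows), and the neighbouring windows 300 bases to either side in 12.3% and 14.4%. Near a 3′ end the central share was 11.9% (56 of 469, 9.31 to 15.2%), beside a flank median of 8.00%. The share was 13.0% in the 2896 distal peaks that were listed at day 0 alone, 16.2% in the 419 distal peaks that a control list shared, 4.78% in the 9270 peaks near a TSS and 7.81% in all 32851 RefSeq promoters of the same length. These intervals cover counting error only, and windows of neighbouring regions share their surroundings. Regions with more than 1 match had a median day 0 score of 77.2, those with 1 match 94.2 and those with none 119.2. Of these, 3 of 28, 53 of 212 and 413 of 1139 lay within 1 kb of a 3′ end. Regions there had a median score of 257.1 against 92.4 elsewhere, and the part of position in these medians was not tested.

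**Figure D1:**
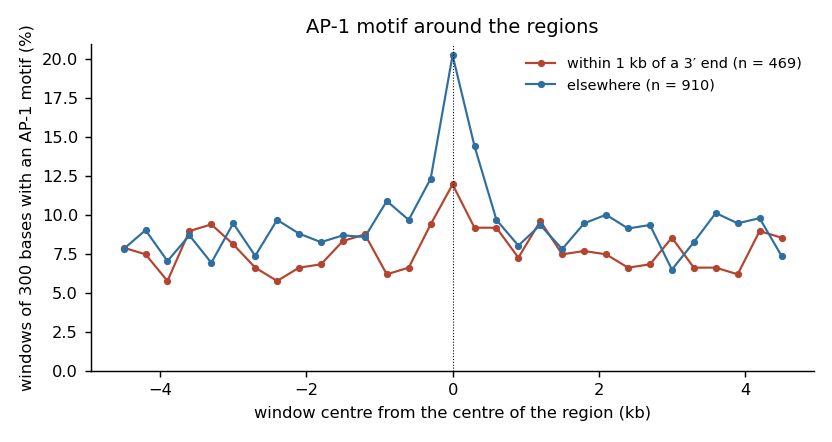
Share of windows of 300 bases with an AP-1 motif (y axis, percent) by the distance of the window from the centre of the region (x axis, kb), for the regions within 1 kb of a 3′ end and for those elsewhere. The line for regions elsewhere reaches 20.2% at the centre and stays at 6.48 to 10.1% beyond 3 kb, and the line for regions near a 3′ end reaches 11.9%.

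Searches for 22 motifs covered both strands, each motif on its own so that matches of different motifs may overlap. Windows 5 kb to the left and right of the centres were counted for all 22. The flank windows behind the flank medians were counted for 4 of them, those of AP-1, SP and KLF, TEAD and RUNX factors. The GC-rich SP and KLF letters GGGCGG were in 14.9% of the centres elsewhere than a 3′ end, beside a flank median of 6.70% (5.17 to 8.57% over the windows). Near a 3′ end the central share was 5.97%, beside a flank median of 8.21% (6.82 to 11.1% over the windows). These letters were in 11.9% of all regions, 5.21% of day 0-only distal peaks, 29.1% of distal peaks shared with control and 35.7% of promoters. TEAD letters (GGAATG) were in 17.0% of regions and 14.7% of promoters, RUNX letters (TGTGGT) in 22.6% and 16.8%, and CEBP letters (TTGCNNAA) in 12.8% and 10.8%. In regions elsewhere, the centre held TEAD letters in 18.8% and RUNX letters in 22.4%, against flank medians of 15.7% and 23.5%. The TEAD share stood just above its flank windows (13.4 to 17.7%), and the RUNX share lay within its own (19.7 to 26.2%). The letters of the fat-cell regulator PPARG with RXR (GGNCAAAGG) were in 2.03% of regions and 1.87% of promoters, and those of the glucocorticoid receptor (ACANNNTGT) in 6.89% and 6.85%.

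Beside all promoters the other motifs differed little or were rarer. Windows 5 kb to the left and right of the centres gave another picture for some. GATA letters were in 11.6% of regions against 15.9% and 13.9% of these windows, and the Snail E-box in 20.2% against 23.7% and 24.2%. EBF letters were in 6.02% against 4.28% and 4.42%, and ETS letters in 1.09% against 0.58% and 0.58%. The Snail E-box was in 28.4% of regions near a 3′ end and 15.9% of those elsewhere. For the regions and then all promoters, shares were 6.02% and 6.56% for EBF (CCCNNGGGA), 11.6% and 11.2% for GATA factors (AGATAA), 8.63% and 8.30% for STAT (TTCNNNGAA), 4.64% and 5.82% for NF-kB (GGGNNTTCC) and 7.25% and 8.56% for IRF factors (TTCNNTTTC). The E-box CACGTG was in 5.29% and 7.15%, the Snail E-box CAGGTG in 20.2% and 20.2%, and the CCAAT box in 30.5% and 37.4%. ETS letters (CCGGAAGT) were in 1.09% and 3.89%, and the cAMP response element (TGACGTCA) in 0.435% and 1.79%. GFI1 (AATCACTGC), REST (TCAGCACC), CTCF (AGGTGGCAG) and MEF2 (TATTTATAG) letters were in 0.290%, 0.870%, 0.870% and 0.218% of regions, against 0.253%, 1.65%, 0.782% and 0.451% of promoters. The centres had a median GC content of 49.7%, against 46.0% in day 0-only distal peaks, 54.3% in distal peaks shared with control and 61.7% in peaks near a TSS, which bears on how often GC-rich letters occur.

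Of the 10 regions with the highest day 0 score 9 came within 1 kb of the 3′ end of a gene, as did the 5 widest. In all, 469 regions (34.0%) came within 1 kb of a 3′ end, against 31.3% of day 0-only distal peaks and 22.4% of distal peaks shared with control. Measured from the centre, so that width plays no part, 434 regions (31.5%) lay within 2 kb of a 3′ end, while 3.27% of the bases over 1 kb from a TSS lie that close. By this measure day 0-only distal peaks stood above the regions, at 33.3%, and distal peaks shared with control at 19.3%. The same measure gave 14.1% in the 14473 distal peaks of LSD1-labelled cells at day 7, 31.5% in all 4727 of theirs at day 0, and 18.4% and 15.4% in the 858 and 266 distal peaks of control cells at day 7 and at day 0. Of the 469 regions, 337 (71.9%) had their centre downstream of the 3′ end, at a median offset of 894 bp.

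The share at 3′ ends grew with the authors' day 0 peak score. In 4 groups of score of about equal size, from 50 to 72.3 up to 239.7 to 3100, the share within 1 kb of a 3′ end was 15.7%, 16.8%, 31.7% and 71.9%, and the share with the centre within 2 kb was 18.3%, 19.1%, 29.7% and 58.8%. The groups also differed in width, with medians of 1256, 1459, 2028 and 3584 bp. Regions at 3′ ends had a median score of 257.1 and a median width of 2736 bp, against 92.4 and 1555 bp elsewhere, and 45.6% of the regions elsewhere were intronic, against 15.6% of those at 3′ ends.

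**Figure D2:**
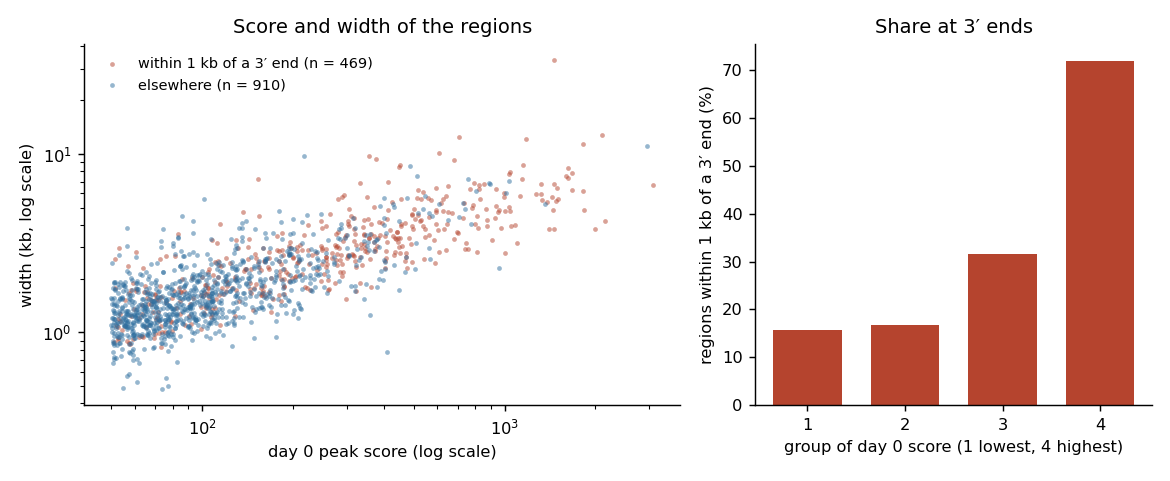
Left, width (kb) against the authors' day 0 peak score for each of the 1379 regions, both on log scales, coloured by whether the region came within 1 kb of a 3′ end. Right, the percent of regions within 1 kb of a 3′ end in each of the 4 groups of score, which was 15.7% in the lowest and 71.9% in the highest.

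**Figure D3:**
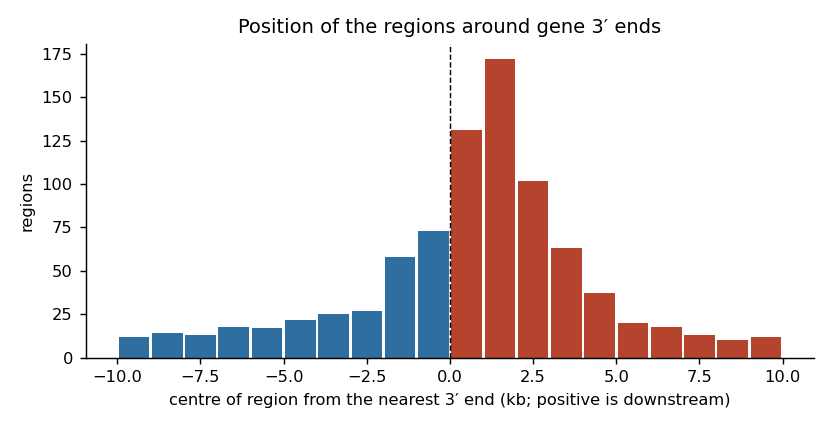
Number of regions (y axis) by the position of their centre relative to the nearest curated 3′ end (x axis, kb, positive values downstream), in steps of 1 kb. The tallest bar, 172 regions, lies 1 to 2 kb downstream, and the 131 regions of the first kb downstream exceed the 73 of the last kb before the 3′ end.

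Scores of the regions ran from 50 to 3100 with a median of 112.1, against 81.9 in day 0-only distal peaks and 174.0 in distal peaks shared with control, and widths from 484 to 33372 bp with a median of 1784 bp. Centres lay outside genes in 695 regions (50.4%), in introns in 488 (35.4%) and in exons in 196 (14.2%), at a median of 9.40 kb from a TSS. Day 7 peaks of LSD1-labelled cells covered a median of 42.1% of a region, against 61.5% for distal peaks shared with control, covered 27 regions in full, and came as several peaks in 314. The highest overlapping day 7 score had a median of 122.7, and across regions it had a Spearman correlation of 0.108 with the day 0 score, while day 0 score and width correlated at 0.762 (n = 1379, all from the same libraries). Just inside the limit of 1 kb lay a region with a gap of 1013 bp to the TSS of Snord57 and a day 0 score of 323.0, and just outside it a peak at 995 bp from the TSS of H3f4 with a score of 459.4. A score under 60 was found in 180 regions, and 35 had a control peak within 1 kb.

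The region with the highest day 0 score, 3100, was chr10:37129643-37136368 at the 3′ end of Marcks, a membrane and actin-binding substrate of protein kinase C. Its centre lay 238 bp past the end of the gene, in sequence that holds no AP-1 letters, printed here as an example of a 3′ end region.
Marcks 3′ end region (chr10:37132945-37133064, plus strand): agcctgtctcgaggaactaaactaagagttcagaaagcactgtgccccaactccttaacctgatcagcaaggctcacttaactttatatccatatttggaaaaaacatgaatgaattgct
Day 7 peaks covered 3.64% of it. Marcks RNA was 65.3, 64.6 and 57.0 CPM at day 7 and 339.9, 375.4 and 351.8 CPM at day 0 in LSD1-labelled libraries, a log2 change of -2.51 (SE 0.107, adjusted p = 4.23e-10, edgeR). Control libraries had 206.3, 209.7 and 193.9 CPM at day 7 and 455.7, 440.0 and 524.6 CPM at day 0, so that LSD1-labelled libraries were lower than control at each day with no overlap. The day 0 difference by label did not pass without replicate 3 of control (log2 -0.34, adjusted p = 0.0607, edgeR).

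Other regions of high score marked the ends of genes of diverse roles. Sparc, a secreted matrix glycoprotein, had a region of score 1995 at chr11:55391975-55395785, centred 279 bp past its 3′ end, of which day 7 peaks covered 23.3%. Its RNA was 722.3, 774.4 and 904.3 CPM in LSD1-labelled and 2070, 2020 and 2166 CPM in control libraries at day 7, and 3061, 1796 and 1720 CPM against 5376, 6332 and 5567 CPM at day 0. Sparc was lower by label at both days, by log2 -1.38 (SE 0.194, adjusted p = 4.2e-05, edgeR) and -1.39 (adjusted p = 0.000268, edgeR). Bag6, a chaperone of newly made membrane proteins, had a region of score 2146 at chr17:35145451-35149673 with its centre 241 bp past the 3′ end, and day 7 peaks covered 62.2% of it. Bag6 RNA was 387.5, 456.7 and 544.4 CPM in LSD1-labelled against 317.6, 301.2 and 279.4 CPM in control libraries at day 7 (log2 0.63, SE 0.145, adjusted p = 0.00211, edgeR), and at day 0 the difference of -0.14 did not pass (adjusted p = 0.521, edgeR), although without replicate 1 of the LSD1-labelled day 0 group it was -0.30 and passed (adjusted p = 0.0297, edgeR).

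Nfe2l1, a transcription factor of the basic leucine zipper class and a gene other than Nrf1, had a region of 11296 bp and score 1813 that overlapped no Nrf1 peak. Nfe2l1 was higher by label at both days, with 728.0, 785.4 and 781.3 CPM against 426.3, 416.6 and 426.3 CPM in control at day 7 (log2 0.85, SE 0.155, adjusted p = 0.000351, edgeR). The region of score 1673 at chr10:127657865-127664111 was centred 1 bp from the 3′ end of Stat6, which faces that of Nab2, so that it belongs to both ends. Stat6, a transcription factor of interleukin signalling, had 171.9, 183.8 and 218.2 CPM in LSD1-labelled against 102.5, 101.3 and 110.8 CPM in control libraries at day 7 (log2 0.87, SE 0.114, adjusted p = 2.28e-05, edgeR). At day 0 Stat6 did not pass with all libraries. It was lower by label then without replicate 1 of the LSD1-labelled day 0 group (log2 -0.38, adjusted p = 0.00425, edgeR). Without replicate 3 of the LSD1-labelled day 7 group the day 0 value was -0.30 (adjusted p = 0.0469, edgeR).

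The ends of Tmem176b, a membrane protein, Selenow, a selenoprotein, and Pdap1 bore regions of score 1829, 1816 and 1668. Selenow RNA was 178.9, 176.0 and 188.6 CPM in LSD1-labelled against 87.6, 95.8 and 78.0 CPM in control libraries at day 0 (log2 1.06, SE 0.121, adjusted p = 5.94e-05, edgeR), and at day 7 the difference was 0.08 (adjusted p = 0.565, edgeR). Pdap1 differed by label at neither day by the test, with log2 0.16 at day 0 and -0.15 at day 7. One region of score 2958, chr7:92725219-92736318, lay away from a curated 3′ end, 10.7 kb from the TSS of 4632427E13Rik. The widest region, 33372 bp at chr1:45324639-45358010, lay over the body and the 3′ end of Col3a1, the fibrillar collagen of loose connective tissue, and day 7 peaks covered 1.56% of it. Col3a1 RNA was 917.4, 898.5 and 903.1 CPM against 1978, 1805 and 2262 CPM in control at day 7, and 1872, 2323 and 2177 CPM against 7352, 7631 and 7952 CPM in control at day 0, lower by label at both days (log2 -1.15 and -1.85, adjusted p = 2.51e-06 and 7.9e-07, edgeR).

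At the other extreme, the 5 regions named for their day 7 score all stood at 3100, near Nabp1, Sh3pxd2a and Angptl4. Ties at that score were taken by lowest start coordinate, so further regions may share it. The region at chr17:33772843-33775719, centred 619 bp past the 3′ end of Angptl4, a secreted inhibitor of lipoprotein lipase, had a day 0 score of 176.4 and was covered in full by a day 7 peak. Angptl4 RNA was 969.1, 997.6 and 1059 CPM in LSD1-labelled against 205.6, 202.7 and 219.9 CPM in control libraries at day 7 (log2 2.27, SE 0.210, adjusted p = 1.03e-06, edgeR). At day 0 it was 29.6, 51.0 and 63.5 CPM in LSD1-labelled against 104.9, 128.2 and 110.2 CPM in control libraries, lower by label (log2 -1.25, SE 0.205, adjusted p = 0.000852, edgeR). The groups did not overlap at either day and lay in opposite order, and the label effects of the 2 days differed (interaction 3.52, SE 0.293, adjusted p = 1.02e-06, edgeR).

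Genes with a region at their 3′ end were highly expressed. The 469 regions belonged to 462 distinct genes, of which 425 were tested for RNA. Their median level was 27.0 CPM per kb of transcript in LSD1-labelled libraries at day 0, against 9.33 CPM per kb over all tested genes and 19.0 CPM per kb for genes nearest by TSS. When 12890 genes with a curated 3′ end were ranked by that level, 0.931% of the lowest decile and 9.47% of the highest bore a region (12 and 122 genes), and 46.1% of the 425 stood in the top 2 deciles. Peaks other than these followed level too: day 0-only distal peaks lay at the ends of 1.78% of the lowest and 11.8% of the highest decile, and distal peaks of control at day 7 at 0.543% and 3.10%. Over the 425 genes, score and level had a Spearman correlation of 0.244, with both from LSD1-labelled cells at day 0.

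Where a larger share of a 3′ end region was covered at day 7, the RNA of its gene had more often risen by day 7. In 4 groups of coverage (1.56 to 19.3%, 19.4 to 32.9%, 33.1 to 53.2% and 53.2 to 100% of the region), the median log2 of day 7 over day 0 in LSD1-labelled cells was -0.36, 0.08, 0.25 and 0.66. By edgeR, 27, 34, 47 and 61 genes rose and 54, 34, 24 and 18 fell, of 107, 106, 106 and 106. Among all 13356 tested genes, 32.6% rose and 37.2% fell (a median of -0.07), so that the least covered group, with 25.2% and 50.5%, and the most covered, with 57.5% and 17.0%, lay on opposite sides of it. Across the 425 genes the Spearman correlation of coverage with the RNA change was 0.301, and across 452 nearest genes of regions elsewhere it was 0.05. Wide regions were less covered (-0.272) and their genes changed lower (-0.233), and the correlation was 0.215 in the narrower and 0.314 in the wider regions, split at the median width. Without replicate 1 of the LSD1-labelled day 0 group it was 0.319, with medians of -0.27, 0.15, 0.25 and 0.74. The 2 readouts come from separate assays of the same kind of cells, and the points share libraries, so the correlations are descriptions. Their dependence on ChIP-seq depth was not tested, since the depth of the ChIP-seq libraries is unknown.

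**Figure D4:**
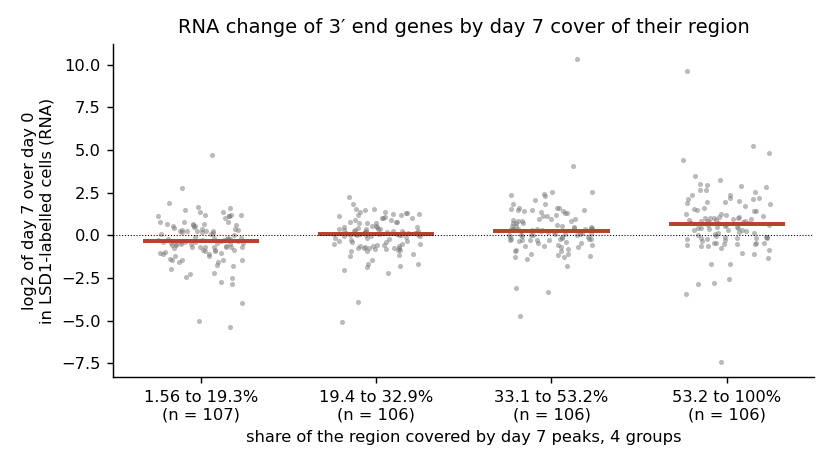
RNA change of the 425 genes with a region at their 3′ end (y axis, log2 of day 7 over day 0 in LSD1-labelled cells), in 4 groups by the share of the region that day 7 peaks covered (x axis). Grey points are genes and red lines are medians, which were -0.36, 0.08, 0.25 and 0.66 from the least to the most covered group.

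Few regions overlapped an Nrf1 peak. There were 24 with a peak at either day (1.74%), of which 21 had one at day 0 and 10 at day 7, and 7 had both, against 0.518% of day 0-only distal peaks, 10.7% of distal peaks shared with control and 19.2% of peaks near a TSS. Counted over the whole region, the NRF1 letters GCGCANGCG, or their reverse complement, were in 6 of the 7 regions with both peaks. They were in 7 of the 24 with either and in 33 of the 1355 with none (2.44%). In windows of 300 bases they were in 12 of the 1379 region centres (0.87%) and in 6.25% of all promoters. The letters are in capitals in 3 of the 7 regions with both peaks, shown as examples. Nrf1 peaks of both days overlap these regions, and whether the peaks cover the letters was not tested.
region nearest to Gm10277 (chr11:77793376-77793444, plus strand): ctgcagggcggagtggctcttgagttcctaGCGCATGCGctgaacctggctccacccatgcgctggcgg
region nearest to Mir15a (chr14:61648887-61648955, plus strand): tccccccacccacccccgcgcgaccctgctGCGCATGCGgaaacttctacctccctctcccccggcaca
region nearest to Morn3 (chr5:123057850-123057918, plus strand): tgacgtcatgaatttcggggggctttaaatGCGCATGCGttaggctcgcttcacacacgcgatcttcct
None of the 3 windows overlaps an annotated exon. The highest-scoring region with an Nrf1 peak, 1174 at day 0, lay on chr16:92112526-92124678, past the 3′ end of Mrps6, a protein of the mitochondrial ribosome, and had its Nrf1 peak at day 0. Others lay nearest to Cyp1b1, Wee1, Sdc4, Fbln2 and Kmt2e.

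The genes nearest by TSS changed in both directions, in shares near those of all genes. Of 1379 regions, 1357 had a TSS within 100 kb, of 1214 genes, 860 of which were in the count files and 749 passed the filter on low counts, while 111 did not and 354 had no row. At day 7, 270 of the 749 (36.0%) were higher and 238 (31.8%) lower in LSD1-labelled than in control libraries, against 30.2% and 33.4% of all 13356 genes. At day 0, 108 (14.4%) were higher and 117 (15.6%) lower, against 12.8% and 13.0%. Without replicate 1 of the LSD1-labelled day 0 group these were 162 and 228, against 22.6% and 26.0% of all genes, and without replicate 1, 2 or 3 of control at day 0 the number higher was 71, 71 and 68. Between the days in LSD1-labelled cells, 251 (33.5%) rose and 280 (37.4%) fell, against 32.6% and 37.2%. The interaction of label and day was positive in 216 (28.8%) and negative in 202 (27.0%), against 23.9% and 28.1%.

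Genes with a region at the 3′ end were more often higher than lower by label at day 7. Of 425, 177 (41.6%) were higher and 95 (22.4%) lower in LSD1-labelled libraries (median log2 0.23, and -0.05 over all genes), against 30.2% and 33.4% of all genes. At day 0, 57 (13.4%) were higher and 62 (14.6%) lower (median 0.01), against 12.8% and 13.0%. Without replicate 1 of the LSD1-labelled day 0 group, 91 (21.4%) were higher and 131 (30.8%) lower (median -0.08), against 22.6% and 26.0%. The interaction was positive in 152 (35.8%) and negative in 79 (18.6%), against 23.9% and 28.1%, and 169 (39.8%) rose and 130 (30.6%) fell between the days, against 32.6% and 37.2%. Adipocyte markers were higher in the same LSD1-labelled libraries at day 7, as given above, and their part in these counts was not tested. The rule also kept only regions listed in LSD1-labelled cells at day 7 and in no control list. Peaks at 3′ ends followed RNA level, and genes with a region there had a higher median level than all tested genes. The part of this choice and of level in these counts was not tested.

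The 6 nearest genes most raised by label at day 7, among those averaging at least 10 CPM, included Lpin1, Pde4d, Trp53inp2, Gpr146 and Cycs. Lpin1, a phosphatidate phosphatase of lipid synthesis, had 719.0, 732.5 and 708.5 CPM in LSD1-labelled against 138.3, 121.6 and 134.7 CPM in control libraries (log2 2.45, SE 0.175, adjusted p = 1.09e-07, edgeR). Pde4d, which breaks down cyclic AMP, had 174.6, 188.1 and 165.2 CPM against 23.96, 22.5 and 24.6 CPM (log2 2.89, SE 0.112, adjusted p = 6.4e-10, edgeR). The groups did not overlap in any of these genes. Trp53inp2, a promoter of autophagy, the orphan receptor Gpr146 and cytochrome c, Cycs, were higher by log2 2.91, 2.47 and 2.61 (adjusted p = 3.25e-10, 1.82e-08 and 2.12e-07, edgeR). The Cycs region was centred 22 bp from its 3′ end and fully covered at day 7, and reads of Cycs are uncertain because the gene has many near-identical copies in the genome.

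The 6 most lowered at day 7 were Cdh11, Matn4, Timp3, Dnm3os, Cacna1g and Ccl2. Cdh11, a cadherin of mesenchymal cells with a region in its intron, had 6.07, 6.97 and 5.59 CPM in LSD1-labelled against 402.4, 385.7 and 360.9 CPM in control libraries (log2 -5.95, SE 0.188, adjusted p = 1.94e-10, edgeR). Cacna1g, a voltage-gated calcium channel, had 14.3, 14.2 and 17.9 CPM against 355.3, 295.3 and 350.8 CPM (log2 -4.43, SE 0.158, adjusted p = 4.38e-10, edgeR). Matn4, a matrilin whose nearest region lies at the 3′ end of Sdc4, had 0.441, 0.362 and 0.414 CPM against 18.8, 17.3 and 17.9 CPM (log2 -5.45, adjusted p = 1.27e-07, edgeR). The groups stood far apart in these genes. Timp3, an inhibitor of matrix proteases, and the noncoding RNA Dnm3os were lower by log2 -4.90 and -4.73 (adjusted p = 0.000737 and 3.94e-07, edgeR), and since both lie within introns of other genes on the opposite strand and no stranded counting is stated, their reads cannot be told apart from those of their hosts. In Timp3, replicate 1 of the LSD1-labelled day 0 group had 10.4 CPM, against 151.1 and 128.8 CPM in its fellows.

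At day 0 the 6 most raised nearest genes were Ier3, Ccl2, Spp1, Zc3h12a, Bbc3 and Tmem176b. The first 4 have a printed AP-1 window, but windows were picked from named genes for holding the letters. Whether AP-1 letters go with the rise was not tested. Ccl2, the monocyte chemokine, had 570.0, 193.5 and 244.1 CPM in LSD1-labelled against 100.1, 115.0 and 77.4 CPM in control libraries (log2 1.78, SE 0.328, adjusted p = 0.00185, edgeR). Replicate 1 was the highest of its group, and without it the difference was 1.17 (adjusted p = 9.03e-06, edgeR). At day 7 Ccl2 stood the other way, at 4.80, 3.51 and 2.90 CPM against 71.0, 89.5 and 78.5 CPM (log2 -4.42, SE 0.392, adjusted p = 7.18e-07, edgeR), with an interaction of -6.20 (adjusted p = 9.35e-07, edgeR). Spp1, the matrix cytokine osteopontin, had 651.0, 515.8 and 597.7 CPM against 184.6, 208.2 and 170.1 CPM at day 0 (log2 1.65, adjusted p = 1.42e-05, edgeR) and was lower at day 7 (log2 -2.95, adjusted p = 1.23e-08, edgeR). Ier3, an early-response gene, and Zc3h12a, a nuclease that degrades inflammatory transcripts, followed the same order, with 1.91 and 1.61 at day 0 and -0.94 and -1.02 at day 7 (adjusted p = 2.93e-05, 9.2e-05, 0.000898 and 0.000441, edgeR). Zc3h12a had 3 regions, of which the one past its 3′ end scored 562.0 at day 0 and up to 1445 at day 7. Tmem176b and Bbc3, which promotes cell death, were higher at day 0 by 1.26 and 1.47 (adjusted p = 0.000125 and 3.02e-05, edgeR).

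The 6 most lowered nearest genes at day 0 were Ppp1r3c, Col3a1, Prelp, Fgfrl1, Stom and Gas6. Ppp1r3c, which brings a phosphatase to glycogen, had 15.4, 16.9 and 19.7 CPM in LSD1-labelled against 61.0, 68.8 and 59.9 CPM in control libraries (log2 -1.87, SE 0.116, adjusted p = 5.35e-07, edgeR). At day 7 it was higher by label, with 467.6, 459.2 and 513.8 CPM against 282.8, 250.8 and 278.7 CPM (log2 0.83, SE 0.111, adjusted p = 2.73e-05, edgeR). Fgfrl1, a fibroblast growth factor receptor without a kinase domain, had 3 regions, covered by 93.4 to 97.7% at day 7, and likewise stood at log2 -1.64 at day 0 and 1.06 at day 7 (adjusted p = 2.67e-06 and 7.69e-06, edgeR). Prelp, a matrix proteoglycan, Stom, a membrane scaffold, and Gas6, a ligand of receptor tyrosine kinases, were lower at day 0 by log2 -1.79, -1.52 and -1.49 (adjusted p = 7.64e-05, 4.37e-06 and 4.8e-06, edgeR). Tenm4, a teneurin, was among the largest rises of the interaction, at 2.71 (adjusted p = 0.000765, edgeR).

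Between the days in LSD1-labelled cells, the largest rises near a region included Rarres2, Acsl1, Bnip3, Agt and Cycs, and the largest falls were in Timp3, Matn4, Cdh11, Ccl2, Dnm3os and Ass1. Acsl1, which activates long-chain fatty acids and whose region holds 3 AP-1 matches, had 2990, 2966 and 3046 CPM at day 7 and 39.8, 56.7 and 55.8 CPM at day 0 (log2 5.88, SE 0.175, adjusted p = 3.14e-11, edgeR). Rarres2, the adipokine chemerin, had 289.9, 279.8 and 286.2 CPM at day 7 and 3.23, 4.26 and 3.98 CPM at day 0 (log2 6.22, SE 0.155, adjusted p = 1.53e-11, edgeR). The region nearest to Bnip3, a receptor for the removal of mitochondria, lay 25366 bp from its TSS, at the 3′ end of Ppp2r2d. Bnip3 RNA was 1547, 1402 and 1389 CPM at day 7 and 36.2, 23.8 and 24.6 CPM at day 0 (log2 5.68, SE 0.178, adjusted p = 4.17e-11, edgeR). Each gene lay far apart between the days in all 3 libraries. Agt, the precursor of angiotensin, rose by 5.49 (adjusted p = 1.75e-07, edgeR), with 170.0 CPM in replicate 1 and 50.4 and 47.8 CPM in the others at day 0. Ass1, an enzyme of arginine synthesis whose 2 regions lie upstream of it in introns of Hmcn2, had 1.05, 1.29 and 1.92 CPM at day 7 and 41.3, 38.2 and 40.6 CPM at day 0 and fell (log2 -4.81, SE 0.232, adjusted p = 1.32e-09, edgeR).

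**Figure D5:**
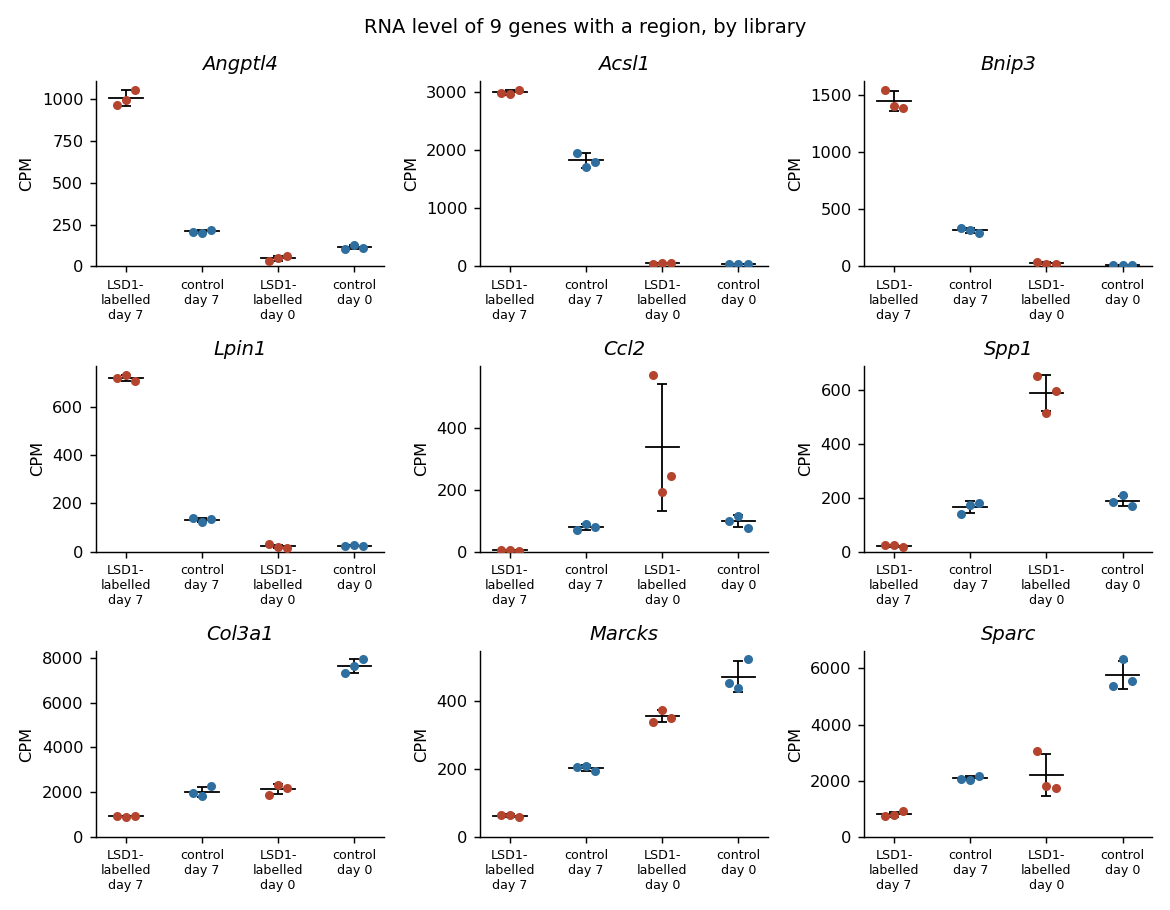
RNA level (y axis, CPM, from 0) of 9 genes nearest to a region by TSS, in LSD1-labelled and control libraries at day 7 and at day 0. Points are libraries and black bars are means with SD (n = 3). Angptl4, Acsl1, Bnip3 and Lpin1 were highest in LSD1-labelled libraries at day 7, Ccl2 and Spp1 in LSD1-labelled libraries at day 0, and Col3a1, Marcks and Sparc in control libraries at day 0.

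Over all tested genes, 749 of 13356 (5.61%) were the nearest gene of a region, and the tested members of gene lists for adipogenesis and its signalling are counted beside that share. In the adipocyte program 1 of 24 was a nearest gene (Acsl1), and Fasn, fatty acid synthase, had a region at its 3′ end. Of 22 preadipocyte and fibroblast genes Pdgfrb and Col3a1 were, both lower by label at both days, Pdgfrb by log2 -3.19 at day 7 (adjusted p = 2.22e-09, edgeR). None of the 11 thermogenic or 14 oxidative metabolism genes or the 20 of TGF-beta, BMP and Wnt signalling was. Of 18 inflammation genes Ccl2 and Nfkbia were, Nfkbia, the inhibitor of NF-kB, being higher at day 0 (log2 0.84, adjusted p = 0.0143, edgeR) and lower at day 7 (-0.98, adjusted p = 0.00182, edgeR). Its day 0 value was 0.41 without replicate 1 of the LSD1-labelled group, and without replicate 1 of control it did not pass (adjusted p = 0.0552, edgeR). Of 19 genes of LSD1 complexes 3 were, among them Rcor2 and Zeb2. Rcor2, a CoREST protein, was higher by label at day 7 (log2 0.75, adjusted p = 0.0114, edgeR) but not without replicate 2 of control (0.61, adjusted p = 0.0538, edgeR). Zeb2 was at -0.69 (adjusted p = 0.0606, edgeR), and without replicate 1 of the LSD1-labelled day 0 group it passed (adjusted p = 3.03e-06, edgeR). Fos, a subunit of AP-1 with a region 23.8 kb away, passed in none of the 4 comparisons with all libraries, at 3.48, 5.47 and 4.76 CPM against 5.17, 5.05 and 5.95 CPM in control at day 7 and 2.17, 8.87 and 9.02 CPM against 8.60, 6.57 and 13.9 CPM at day 0. Without replicate 1 of the LSD1-labelled day 0 group, which was its lowest, the change of Fos by day 7 was log2 -0.97 and passed (adjusted p = 0.00146, edgeR), against -0.55 with it. Irf1 and the cell-cycle inhibitor Cdkn1b passed narrowly, Irf1 at day 7 (log2 0.41, adjusted p = 0.0424, edgeR) and Cdkn1b at day 0 (0.49, adjusted p = 0.0372, edgeR), and each lost its call in 11 of the alternatives.

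Some genes had several regions. Of 1214 nearest genes, 1101 had 1 region, 93 had 2 and 20 had 3 or more, and regions of 1 gene share their surroundings. Nedd4, a ubiquitin ligase, had 5 intronic regions of day 0 score 63.4 to 1036, and 2571, 3010 and 2684 CPM in LSD1-labelled against 3654, 3595 and 3757 CPM in control libraries at day 0 (log2 -0.41, SE 0.105, adjusted p = 0.0122, edgeR). Without replicate 3 of control it did not pass (adjusted p = 0.0515, edgeR). The lamin gene Lmna had 4, of which the one past its 3′ end scored 1507, and was lower by label at day 7 (log2 -0.82, adjusted p = 0.00199, edgeR). At day 0 its difference of -0.30 did not pass (adjusted p = 0.26, edgeR). Without replicate 1 of the LSD1-labelled day 0 group it was -0.61 and passed (adjusted p = 8.46e-05, edgeR). Plpp3, a lipid phosphatase, had 4 regions around its last introns and its 3′ end, and was lower by label at both days (log2 -0.35 and -0.83, adjusted p = 0.0077 and 7.75e-05, edgeR). Kmt2e, of the family of histone methyltransferases, had 4 regions, was lower by label at day 7 (log2 -0.50, adjusted p = 0.00333, edgeR), and 1 of its regions overlapped an Nrf1 peak of day 0. These regions were intronic, 23553 to 45498 bp from the TSS of Kmt2e, and the 3′ end nearest to each was one of 5031425E22Rik. Of the others, Gm40346 had 6 and Gm41496 had 4, neither with a row in the count files, and Zswim2 had 4, at 0 counts in all 12 libraries.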

How the data were processed

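The RNA-seq files hold raw counts per RefSeq transcript as deposited, in 30521 rows, and per the submitters' processing notes they came from TopHat2 version 2, HOMER, edgeR and DESeq 1.8.3 on mm10. The authors deposited peak lists with a score in the last column, and per the submitters' processing notes these came from Bowtie2 and MACS 1.41. The scale of the score, its cut-off, the input behind each list and the ChIP-seq depth are not given in the sources used here, and each list is 1 sample, so peaks were compared without a test. The RefSeq assembly GRCm38.p6 gave the TSS, 3′ ends, promoters and sequences. Each gene was its transcript with the highest mean count. The test was edgeR 4.0.16 under R 4.3.3, run on 12 libraries and 4 group means (filterByExpr, TMM, robust glmQLFit, Benjamini-Hochberg adjustment over 13356 genes, threshold 0.05, two-sided). The self-test on simulated counts was passed. Overlaps, motifs and correlations were computed in Python 3.11.15 with pysam 0.24.0 and scipy 1.17.1.

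The members, the gene lists and the motifs were chosen with earlier results of these data known. Regions were named as the 10 highest at day 0, the 5 highest at day 7 and the 5 widest, and genes as the 6 largest rises and 6 largest falls of each comparison among nearest genes past the threshold (at least 10 CPM on average and, except for the interaction, no overlap between replicates), the 8 with the most regions, up to 3 per list, and Kdm1a. The 3′ end genes of the highest regions were added after values were seen. Alternatives were RLE size factors, DESeq2 1.42.0, no filter, each library left out, a replicate block, and other limits for regions and motifs. Some genes that the rule names are not reported here. The input samples were not used here.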

Additional observations from a re-analysis of the deposited data

Results flagged for a closer look

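In 37 of the genes printed or named beside them, the effect of the label differed between day 7 and day 0 by the interaction term of edgeR's quasi-likelihood test (adjusted p under 0.05). The values are log2 differences of the label effect, day 7 minus day 0, and genes were chosen partly for large effects.

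The label effect was higher at day 7 in these genes. Angptl4 had 3.52, Pde4d 3.34, Tenm4 2.71, Ppp1r3c 2.69, Fgfrl1 2.69, Lpin1 2.65, Trp53inp2 2.50, Cycs 2.45, Gpr146 2.11 and Rarres2 2.04. Stom had 1.78, Agt 1.53, Stat6 1.16, Bnip3 1.08, Prelp 0.97, Rcor2 0.93, Bag6 0.77, Col3a1 0.69 and Plpp3 0.48. The values of Agt and Rcor2 lost their call in 5 and 4 alternatives, and that of Agt was 2.40 without replicate 1 of the LSD1-labelled day 0 group.

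It was lower at day 7 in these. Ccl2 had -6.20, Dnm3os -5.46, Timp3 -5.20, Cdh11 -5.06, Spp1 -4.59, Matn4 -4.50, Ass1 -3.58 and Cacna1g -3.38. Gas6 had -2.93, Ier3 -2.85, Zc3h12a -2.63, Pdgfrb -2.63, Tmem176b -2.58, Nfkbia -1.82, Marcks -1.29, Bbc3 -1.24, Selenow -0.97 and Kdm1a -0.57.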

How the results depend on the processing

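With peaks scoring 100 or more, 485 regions, 11 with an Nrf1 peak and 226 near a 3′ end were left. Of nearest genes, 38 were then higher and 42 lower by label at day 0, 117 and 99 at day 7, 98 rose and 106 fell between the days, and the interaction was positive in 89 and negative in 76. With 50% or more of a region covered at day 7, 529 regions were left, 130 near a 3′ end, and the same counts were 33 and 54, 105 and 96, 111 and 106, and 88 and 78. With no TSS within 5 kb, 286 regions near a 3′ end were left. Smaller sets hold fewer genes, so these counts fell with them. Over all 13356 genes 12.8% were higher and 13.0% lower by label at day 0, and 30.2% and 33.4% at day 7. Between the days 32.6% rose and 37.2% fell, and the interaction was positive in 23.9% and negative in 28.1%. The number tested in each smaller set is not given here, so its counts are not read against these shares. With curated TSS, an alternative chosen after seeing the data, the rule gave 1557 regions. For genes with a 3′ end within 1 kb, chosen likewise, counts were 57 and 62 at day 0, 177 and 95 at day 7, 130 falling between the days and 79 with a negative interaction. AP-1 letters were in 12.0% of central windows of 200 bases and 55.0% of whole regions, SP and KLF letters in 9.07% and 40.1%, and NRF1 letters in 2.90% of whole regions, since longer windows hold more letters.

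Leaving out 1 library at a time, 1062 to 3058 of all genes were higher and 1110 to 3507 lower by label at day 0, and 68 to 162 and 78 to 228 of nearest genes. The highest counts came without replicate 1 of the LSD1-labelled day 0 group, and the lowest without replicate 3 of control at day 0. The same-numbered replicates did not deviate together (1 of 18 pairs correlated over 0.1, from -0.249 to 0.114), so the numbers pair no samples. With the replicate number as a replicate block, 1443 of all genes were higher and 1521 lower by label at day 0, 3834 and 4327 at day 7, 4255 rose and 4796 fell between the days, and the interaction was positive in 3035 and negative in 3506. In nearest genes these were 90 and 103, 260 and 229, 247 and 275, and 210 and 190. Of single genes, the block ended the calls of Irf1 at day 7 (adjusted p = 0.0561, edgeR) and Cdkn1b at day 0 (adjusted p = 0.0699, edgeR).
Of 3072 values of single genes under the alternatives, 2962 kept their direction and call, 52 lost a call, 31 gained one and 27, none past the threshold in either fit, changed sign. With 1 library left out, the interaction ran from -0.133 to 0.332 for Sparc, -0.082 to 0.270 for Irf1, -0.120 to 0.566 for Fos, -0.428 to 0.205 for Zeb2 and -0.009 to 0.326 for Nfe2l1. The change by day 7 likewise ran from -0.063 to 0.021 for Plpp3, -0.337 to 0.015 for Irf1 and -0.130 to 0.113 for Cdkn1b, and the day 0 difference by label from -0.179 to 0.825 for Timp3 and -0.349 to 0.013 for Rcor2. Some ends of these ranges gained a call, all without replicate 1 of the LSD1-labelled day 0 group. They were 0.332 for Sparc (adjusted p = 0.0433, edgeR), -0.428 for Zeb2 (adjusted p = 0.017, edgeR) and 0.825 for Timp3 (adjusted p = 0.00083, edgeR). Without a filter, the interactions of Sparc and Irf1 were -0.038 and -0.012 and the change of Cdkn1b -0.033, and with RLE factors and with DESeq2 the change of Plpp3 was 0.004. ChIP-seq depth is unknown and limits every count of regions.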
